A study of Mus musculus with 4 samples.

Results

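The serotonin 2 receptor genes Htr2a, Htr2b and Htr2c were followed through single-nucleus RNA sequencing of the cortex of adult C57BL/6J mice that had received risperidone or saline in adolescence. They are 3 of the 32285 genes in the deposited matrices and were chosen by symbol, because risperidone, an antipsychotic, binds the receptors of this family. Wild-type mice were injected intraperitoneally each day with risperidone (4 mg/kg, a DMSO stock diluted in saline) or with saline for 21 days from postnatal day (PND) 22, and the cortex was taken at PND 90 after a period without drug. Right hemicortices of male and female mice were combined in 1 pool per condition, nuclei were sorted by their DAPI signal, and each pool was run on 2 droplet lanes. The 2 lanes of a condition were therefore technical runs of the same tissue (n = 1 pool), no p-value was computed, and differences between the pools cannot be told apart from differences between the drug groups. The lanes listed 29536 and 29986 nuclei for saline and 25983 and 23450 for risperidone. Risperidone lanes were deeper, with a median of 5648 and 7765 unique molecular identifiers (UMIs, counted molecules) per nucleus against 3297 and 4049 in saline, and total counts from 119736937 to 203675013 UMIs. The shallowest listed nucleus had 1364 and 1630 UMIs for saline and 500 UMIs for each risperidone lane. Intervals in brackets below are 95% intervals of counting error, which do not include the variation between mice.

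The family consists of Gq-coupled receptors. Serotonin binding activates phospholipase C through the G protein, which raises inositol trisphosphate and calcium and activates protein kinase C. In cortex, Htr2a is known from pyramidal neurons and some interneurons and is the main target of psychedelic drugs, Htr2c is known for RNA editing of its transcript and for high levels in choroid plexus and several deep brain nuclei, and Htr2b is best known from heart, gut and lung.

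The genes differ widely in size, which matters for nuclear RNA because intronic molecules were counted. In GRCm38, Htr2a (ENSMUSG00000034997) covers 68.66 kb of the plus strand at chr14:74640840-74709494 and overlaps no other annotated gene. Htr2c (ENSMUSG00000041380) covers 234.8 kb of the plus strand at chrX:146962513-147197277. Htr2b (ENSMUSG00000026228) covers 12.95 kb of the minus strand at chr1:86099026-86111970 and lies inside Psmd1, a proteasome subunit gene on the plus strand at chr1:86064387-86139151. The Htr2c transcript also carries 7 microRNA genes on the same strand, with 11 mature microRNAs in the RefSeq table for GRCm38.p6. None of the 11 shares its seed with another. They are shown, 1 for each microRNA gene and the 3′ arm where both are listed, because they lie inside the transcript whose intronic UMIs were counted. The microRNAs themselves were not measured. Capitals mark the seed, bases 2 to 8.
mmu-miR-3552, chrX:146999424-146999444: aGGCUGCAggcccacuucccu
mmu-miR-764-3p, chrX:147002324-147002345: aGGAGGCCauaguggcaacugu
mmu-miR-1912-3p, chrX:147009493-147009514: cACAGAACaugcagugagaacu
mmu-miR-1264-3p, chrX:147010655-147010676: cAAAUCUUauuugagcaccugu
mmu-miR-1298-3p, chrX:147064970-147064991: cAUCUGGGcaacugauugaacu
mmu-miR-1911-3p, chrX:147107015-147107036: cACCAGGCauuguggucucugc
mmu-miR-448-3p, chrX:147158281-147158302: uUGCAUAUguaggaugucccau

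Cell classes were built from the other genes, with the 3 receptor genes left out of clustering. Of 96553 nuclei kept, those in 27 classes are described: 21 were named from marker genes, and 6 neuronal clusters with no clear class are called by a leading gene. In every lane, all markers of each named neuronal class had UMIs. The summed marker level differed between the pools in some of them. In claustrum/Car3 it was 2928 and 3170 CPM (UMIs of the genes per 1000000 UMIs of the class) in saline and 2447 and 2478 CPM in risperidone, a log2 ratio of -0.31, the lowest of the named classes. It was -0.29 in striatal-type neurons, -0.27 in L5/6 near-projecting (NP) neurons and -0.22 in L2/3 intratelencephalic (IT) neurons. It was 0.35 in Vip interneurons and 0.67 in L6b, and in PV interneurons the lanes overlapped, at 2083 and 2193 against 2145 and 2136 CPM. The cluster class was the same as the class given by the markers of the nucleus alone for 52.5% of nuclei. This share was 94.1% in astrocytes and 92.5% in L5/6 NP but 61.7% in claustrum/Car3, 55.7% in PV interneurons and 50.3% in L4/5 IT. It was 28.6% in L2/3 IT, 26.0% in L6 IT, 24.0% in L5 extratelencephalic (ET) neurons, 22.3% in L6b and 18.4% in Vip interneurons. Values by classes from the markers of each nucleus are therefore also given. Between 11.9 and 12.6% of the nuclei of a lane sat in mixed clusters outside the classes. Classes from the markers of each nucleus drew on all kept nuclei, also those of the mixed clusters and of the 6 clusters with no clear class. A class of the same name can therefore hold other nuclei. Microglia had too few nuclei for a ratio.

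Over all kept nuclei, Htr2c was the most counted member, with 48074 UMIs, followed by Htr2a with 22012 and Htr2b with 747. Htr2a stood at 48.23 and 49.41 CPM in saline and at 36.42 and 36.28 CPM in risperidone. Htr2c stood at 86.8 and 90.9 CPM in saline and at 93.2 and 90.4 CPM in risperidone. The Htr2a lanes of the 2 conditions did not overlap, as was so for 91.5% of genes, while the Htr2c lanes did. Per kilobase of gene span the order of these 2 genes turned: Htr2a was at 0.702 and 0.720 CPM per kb in saline, above Htr2c at 0.370 and 0.387 CPM per kb.

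Htr2a was highest in the claustrum/Car3 class, in L6b neurons and in Lamp5 interneurons. The claustrum/Car3 lanes were at 188.7 and 194.9 CPM in saline and 109.7 and 108.7 CPM in risperidone. L6b, the deepest cortical layer, was at 142.1 and 141.8 CPM in saline and 134.1 and 120.9 CPM in risperidone. Lamp5 interneurons, which include neurogliaform cells, ranged from 114.1 to 130.8 CPM over the 4 lanes. Claustrum/Car3 was first of these in saline only, since its risperidone mean of 109.2 CPM lay below L6b (127.5 CPM) and Lamp5 (115.6 CPM). L4/5 IT neurons (68.3 to 108.1 CPM) and L6 IT neurons (65.3 to 85.0 CPM) came next, ahead of striatal-type spiny projection neurons (56.9 to 62.4 CPM) and PV interneurons (44.5 to 74.9 CPM). L2/3 IT neurons were lower, at 23.6 to 45.0 CPM. Corticothalamic L6 CT neurons, which lie beside L6b, had a mean of 9.26 CPM, and the cluster led by Tshz2 had 7.76 CPM. The class means spanned 19.4-fold, and 24 of the 26 pairs of neighbours in this order overlapped between lanes. The separations were between Lamp5 and L4/5 IT and between L6 IT and the striatal-type neurons. The order depended on the classes. With classes from the markers of each nucleus, L4/5 IT had 100.8 CPM of Htr2a in saline and 69.5 CPM in risperidone. Claustrum/Car3 then had 78.0 and 52.3 CPM, Lamp5 interneurons 73.4 and 66.2 CPM and L6b 55.05 and 42.35 CPM.

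Htr2c had a different order. By the mean over all lanes it was highest in the glutamatergic Tshz2 cluster. The lanes of this cluster were at 342.1 and 341.6 CPM in saline and 570.8 and 570.3 CPM in risperidone. The GABAergic cluster led by Sim1 followed, at 337.4 and 397.2 CPM in saline and 502.2 and 460.0 CPM in risperidone. In saline the Sim1 cluster was first, with a mean of 367.3 CPM against 341.8 CPM in the Tshz2 cluster, although their saline lanes overlapped. L5/6 NP neurons ranged from 281.7 to 339.8 CPM, Vip interneurons from 234.2 to 297.3 CPM and striatal-type neurons from 223.5 to 267.2 CPM. The glutamatergic cluster led by Gm13986 had a mean of 242.6 CPM, and claustrum/Car3 had 162.9 CPM, rank 7 of the 27 classes. At the low end stood L2/3 IT, with a mean of 18.2 CPM, and L6 IT, with 16.8 CPM. In this order 25 of 26 neighbours overlapped. With classes from the markers of each nucleus, Htr2c was at 209.2 CPM in saline and 278.9 CPM in risperidone in L5/6 NP. In the same setting Htr2c was at 190.2 and 238.7 CPM in L6b and at 90.4 and 128.8 CPM in L6 IT. Those classes also held nuclei of other clusters. By cluster class L6b had a mean of 43.6 CPM, rank 19 of the 27 classes. Over the 21 named classes, log2 levels of Htr2a and Htr2c had a Pearson correlation of 0.02, given as a description because classes share libraries.

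**Figure D1:**
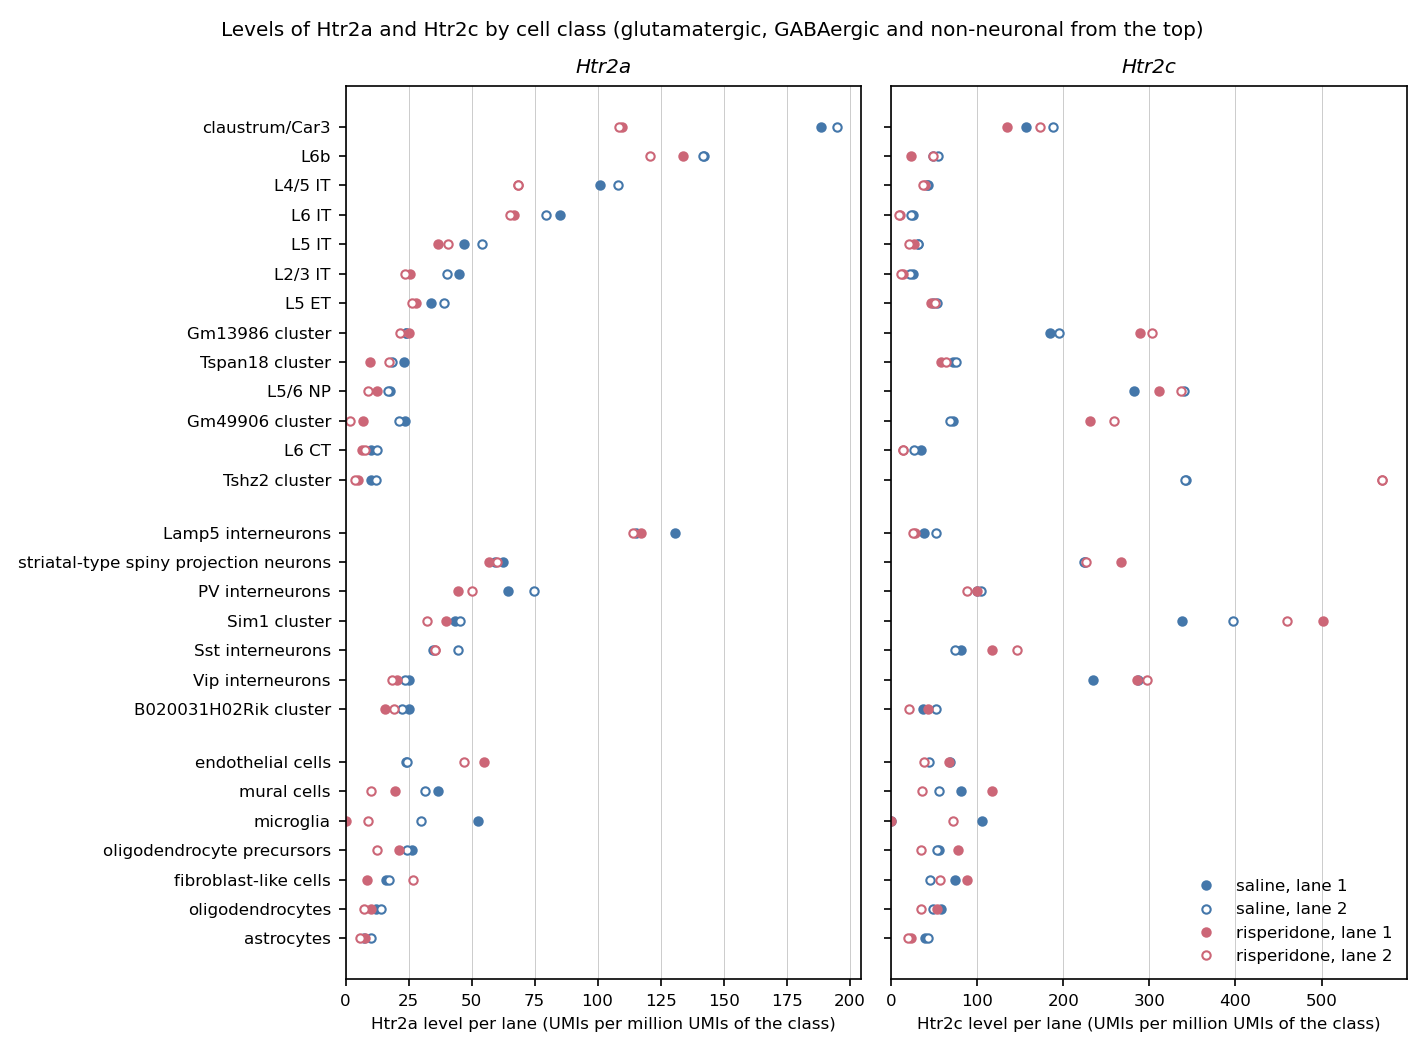
Htr2a (left) and Htr2c (right) levels in CPM (UMIs of the gene per 1000000 UMIs of the class), on the x axis, in each class on the y axis; each point is 1 lane, blue for saline and red for risperidone, filled for lane 1 and open for lane 2. By the mean over all lanes, Htr2a is highest in claustrum/Car3 and Htr2c in the Tshz2 cluster. The claustrum/Car3 lanes are at 188.7 and 194.9 CPM in saline and at 109.7 and 108.7 CPM in risperidone. Both risperidone lanes of the Tshz2 cluster lie near 570 CPM. In saline alone the Sim1 cluster has the highest Htr2c mean, and in risperidone alone L6b and Lamp5 interneurons lie above claustrum/Car3 for Htr2a.

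Detection per nucleus was compared with each nucleus thinned to 1500 UMIs, which left out 1386 and 0 shallower nuclei in saline and 1676 and 1050 in risperidone. At that depth Htr2c was seen in 35.8% and 35.9% of Tshz2-cluster nuclei in saline and in 51.4% and 50.9% in risperidone. Htr2a was seen in 25.8% and 28.2% of claustrum/Car3 nuclei in saline and in 14.3% and 15.6% in risperidone. Unthinned, the claustrum/Car3 shares were 44.9% and 55.3% in saline and 41.9% and 50.6% in risperidone, at median depths of 3735 and 5145 UMIs against 6127 and 8644 UMIs. Oligodendrocytes, which should lack both genes, gave thinned shares of at most 1.44% for Htr2a and 3.89 to 7.19% for Htr2c, at unthinned median depths of 1145 to 2297 UMIs. Htr2c shares in other non-neuronal classes ran from 2.01% in astrocytes to 16.4% in mural cells, leaving out the few microglia. Those of Htr2a reached 6.1% in mural cells and 8.99% in endothelial cells, and the L2/3 IT shares of 3.15 to 6.26% lay below the latter. The Htr2c shares of L2/3 IT (1.6 to 4.28%), L6 IT (1.02 to 4.2%) and L4/5 IT (3.67 to 5.63%) lay within or below the oligodendrocyte range. So did those of L5 IT (3.1 to 4.54%), L5 ET (5.35 to 7.12%), L6 CT (2.12 to 5.70%) and L6b (2.37 to 6.54%). No expression was read from any of these. The Sst share of 8.1 and 8.73% in saline and 9.33 and 10.5% in risperidone lay above the oligodendrocytes but inside the range of the other non-neuronal classes.

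Nuclei with UMIs of both genes were rare at this depth. Of 57502 glutamatergic nuclei at 1500 UMIs, 223 had both, against 288.5 given by the product of the single shares, and the count lay below the product beyond counting error in 3 of 4 lanes. Within classes no lane fell below the product beyond counting error, with 59 against 47.8 in L4/5 IT, 35 against 39.7 in claustrum/Car3 and 41 against 42.8 in the Sim1 cluster. PV interneurons had 45 nuclei with both against 33.4 and Sst interneurons 16 against 9.89. In each of them 1 of 4 lanes was above the product beyond counting error. This was so in no other class. Among the lanes of so many classes, a few can lie outside a 95% interval by counting error alone.

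The genes whose class pattern was most like that of Htr2a, among 5734 genes that reached 50 CPM in a class, were Rimbp2 (r = 0.82), a presynaptic active-zone protein gene, Brinp2 (0.79), Cacna1b (0.77), which encodes an N-type calcium channel subunit, Cnnm1 (0.76) and Nsf (0.76), a membrane-fusion ATPase gene. For Htr2c they were Slc8a3 (0.76), a sodium-calcium exchanger gene, Htr4 (0.74), which encodes another serotonin receptor, Fstl5 (0.72), Nhs (0.72) and Vwc2l (0.67). These are correlations over 21 classes of the same lanes and carry no test. Vwc2l is also a marker used to name L5/6 NP neurons.

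Risperidone lanes were compared with saline lanes by the log2 ratio of summed UMIs after TMM scaling, a trimmed-mean correction for composition. A class was called when the ratio was at least 0.5 in size, the mean was at least 10 CPM and the lanes of the 2 conditions did not overlap. Htr2a was lower after risperidone in glutamatergic neurons as a whole, at 52.6 and 53.8 scaled CPM in saline and 37.2 and 36.2 scaled CPM in risperidone, a log2 ratio of -0.54 (-0.59 to -0.49). That passed the rule, as did 6.28% of genes tested in glutamatergic neurons in this direction. The ratio fell short of the rule at -0.48 with plain CPM, -0.40 with RNA of other nuclei taken out and -0.26 in male nuclei. The amount of that RNA was estimated, and the estimate can be too high, as described below. In GABAergic neurons Htr2a went from 55.0 and 57.3 to 44.1 and 45.4 scaled CPM, a log2 ratio of -0.33 (-0.42 to -0.24), which did not pass it. Over all nuclei the ratio was -0.48 (-0.52 to -0.44), also short of it, where 4.76% of genes were called lower. By class, 10 of the 23 classes with at least 10 CPM were called lower and 1 higher, and 6 of the 10 and the 1 higher had as many or more Htr2a UMIs expected from RNA of other nuclei as were counted, in at least 1 lane. The percent of genes called lower ranged from 5.43 to 16.7 over these classes. Of those called lower, 2 reached 10 CPM only through their saline lanes, so their calls are no support for a fall. They were the Gm49906 cluster, with means of 22.5 CPM in saline and 4.39 CPM in risperidone, and oligodendrocytes, with 13.0 and 8.70 CPM. The ratio was below 0 in 11 of 11 glutamatergic and 7 of 7 GABAergic classes, with a median over all 23 of -0.47. The median of all genes lay between -0.0048 and 0.0154 in the 23 classes, but the scaling itself holds it near 0. The share of genes below 0 in all 18 neuronal classes was not computed. In 9 of these 18 classes at least 1 alternative gave a ratio above 0. The Gm13986 cluster, at -0.10, had overlapping lanes and gave 0.13 in male nuclei, 0.12 after thinning, 0.025 without 1 risperidone lane and 2.26 with RNA of other nuclei taken out. Vip interneurons, at -0.39, gave 0.16 with classes from the markers of each nucleus and 1.04 with RNA of other nuclei taken out. The other 7 were the B020031H02Rik and Sim1 clusters, L5 ET, L5/6 NP, Lamp5, Sst and striatal-type neurons, each of which was above 0 in the nuclei of 1 sex. L6 IT was at -0.84 and L5 ET at -1.06 with classes from the markers of each nucleus. The classes share the same pools and lanes, so they are not independent.

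Claustrum/Car3 neurons, the class with most Htr2a in saline, went from 190.1 and 198.8 to 108.1 and 107.3 scaled CPM. The log2 ratio was -0.86 (-1.04 to -0.67), with lane pairs from -0.89 to -0.81. The summed markers of this class were also lower, by the -0.31 given above, and their part in the result was not tested. L4/5 IT neurons went from 101.8 and 110.2 to 67.4 and 67.6 scaled CPM, a ratio of -0.66 (-0.74 to -0.57), and their 3 subclusters at a finer resolution stood at -0.57 to -0.91. L2/3 IT neurons went from 45.8 and 41.2 to 24.8 and 23.1 scaled CPM, a ratio of -0.86 (-0.96 to -0.76). PV interneurons, the fast-spiking basket cells, went from 65.7 and 77.0 to 43.4 and 49.4 scaled CPM, a ratio of -0.62 (-0.80 to -0.43). In all 4 classes the lanes of the conditions stood apart. In male nuclei alone each ratio fell short of the rule, at -0.01 in claustrum/Car3, -0.29 in L4/5 IT, -0.27 in L2/3 IT and -0.07 in PV interneurons. In female nuclei alone each passed it. The background of genes called lower was 7.96% in claustrum/Car3, 5.43% in L4/5 IT, 6.8% in L2/3 IT and 6.1% in PV interneurons, and the lanes of the conditions stood apart for 56.0% of genes in claustrum/Car3, 79.1% in L4/5 IT, 84.7% in L2/3 IT and 66.9% in PV interneurons. With classes from the markers of each nucleus, claustrum/Car3 was at -0.64, L4/5 IT at -0.56, L2/3 IT at -0.92 and PV interneurons at -0.57.

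Other classes rich in Htr2a did not pass the rule. L6b had a log2 ratio of -0.19 (-0.37 to -0.01), Lamp5 interneurons -0.15 (-0.36 to 0.05) and striatal-type neurons -0.07 (-0.30 to 0.16). In male nuclei L6b was at -0.89 (-1.54 to -0.28) and Lamp5 at -0.46. These were lower than claustrum/Car3 (-0.01), PV interneurons (-0.07), L2/3 IT (-0.27) and L4/5 IT (-0.29). The male L6b ratio rested on 28 risperidone UMIs, with lanes at 114.6 and 41.4 scaled CPM. The difference between classes was not tested. With classes from the markers of each nucleus, L6b, Lamp5 and striatal-type neurons were at -0.44, -0.22 and -0.37. L5 IT (-0.46), L6 IT (-0.38) and L5 extratelencephalic (ET) neurons (-0.49) were lower in every lane pair but fell short of it, where the lanes stood apart for 74.1% of genes in L5 IT, 73.2% in L6 IT and 73.7% in L5 ET. The remaining calls rested on few molecules: 9 risperidone UMIs in the Gm49906 cluster (-2.45, -3.64 to -1.44, with 16.7% of genes called lower), 48 in the Tspan18 cluster (-0.72, -1.23 to -0.22, 15%, with 2 finer subclusters at -2.50 and -0.05, the latter with overlapping lanes), 22 in L5/6 NP (-0.76, -1.60 to 0.041, 9.06%, and 0.37 in female nuclei), 12 in mural cells (-1.25, -2.40 to -0.18, 11.8%), 20 in oligodendrocytes (-0.69, -1.62 to 0.23, 12.4%) and 56 in oligodendrocyte precursors (-0.65, -1.17 to -0.15, 6.06%). The counting intervals of L5/6 NP and oligodendrocytes included 0. Free RNA from other nuclei gives UMIs in any droplet, so the UMIs expected from it were set beside those counted. They were estimated from glial markers in neurons, or neuronal and other glial markers in glia, as a share of the lane's level. Free RNA cannot give more UMIs than were counted. A ratio above 1 by more than counting error therefore shows that the estimate was too high in that lane. It may be too high in others, and a ratio near 1 at few UMIs does not show this. The expected UMIs were 0.83 to 7.45 times those counted in the Gm49906 cluster, 1.04 to 2.25 times in the Tspan18 cluster and 0.73 to 1.25 times in L5/6 NP. They were 1.20 to 3.55 times those counted in mural cells, 2.70 to 4.37 times in oligodendrocytes and 1.10 to 1.61 times in precursors. Endothelial cells were called higher at 1.00 (0.19 to 1.89) from 16 saline and 63 risperidone UMIs, where 13.2% of genes were called higher, with expected UMIs 0.66 to 1.85 times those counted, and the ratio was -0.05 when classes came from the markers of each nucleus.

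**Figure D2:**
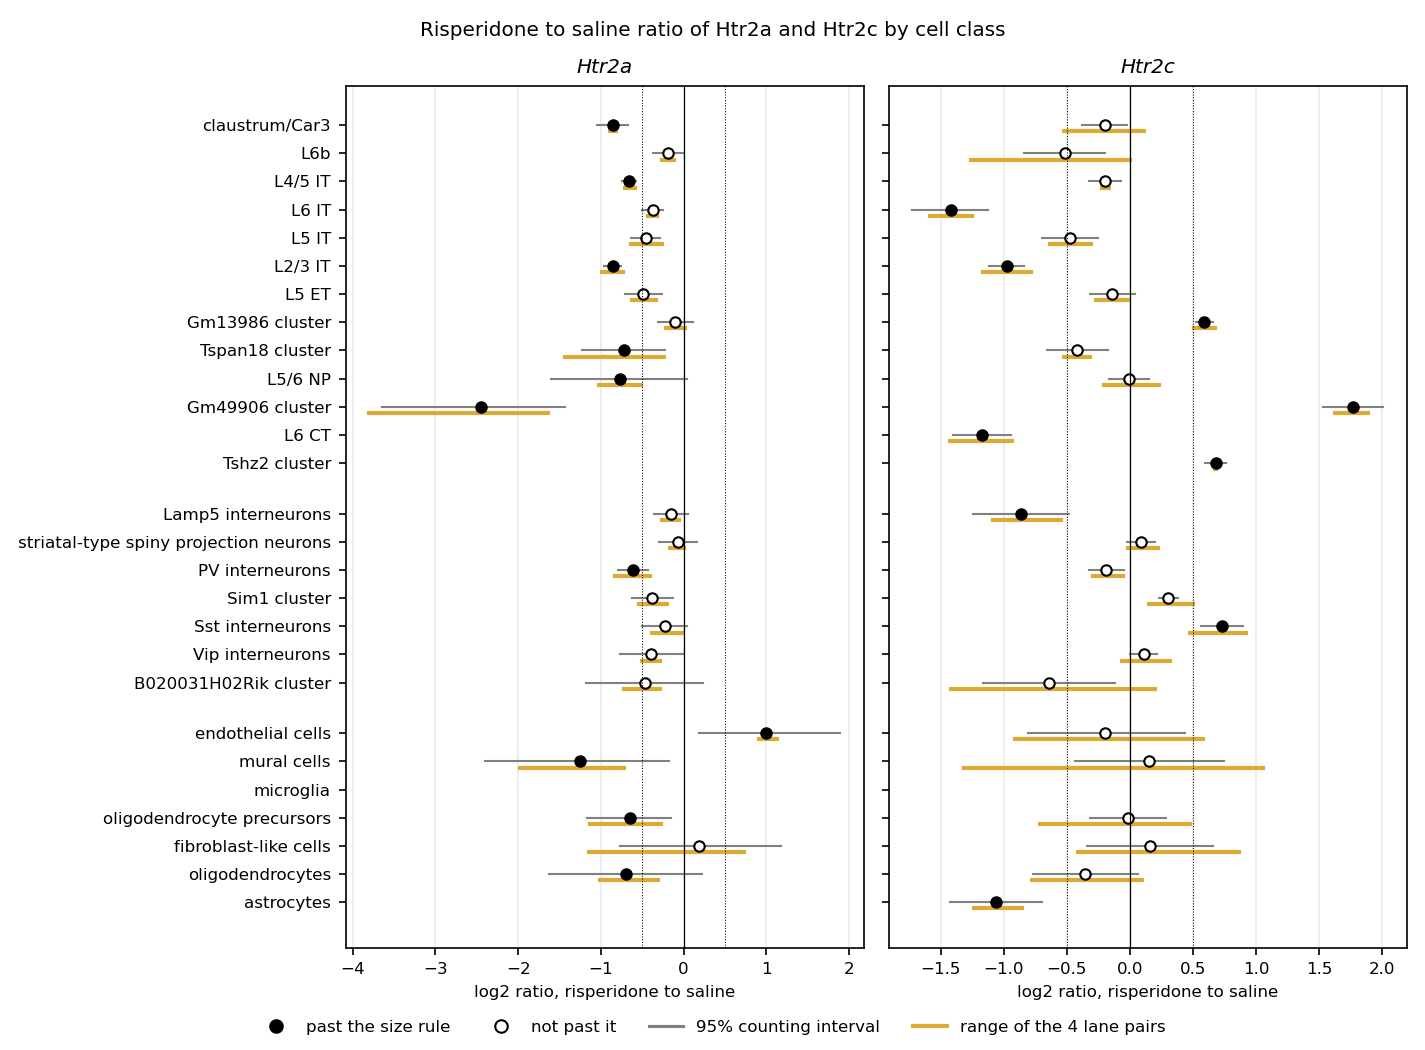
Log2 ratio of risperidone to saline on the x axis for Htr2a (left) and Htr2c (right) in each class with at least 10 CPM; grey bars are 95% counting intervals, yellow bars the range of the 4 lane pairs, dotted lines mark 0.5 in either direction and filled points passed the rule. Htr2a lies below 0 in the 11 glutamatergic and 7 GABAergic classes shown, from -2.45 to -0.07, although 9 of these 18 turned above 0 under at least 1 alternative setting, while Htr2c runs from -1.42 in L6 IT to 1.77 in the Gm49906 cluster.

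Male and female nuclei came from different mice within each pool and were separated by UMIs of Xist or of Y-linked genes. Nuclei with any Xist UMI and no Y-linked UMI were called female, and those with the reverse were called male. Between 37.3 and 50.8% of kept nuclei were called female and between 18.5 and 20.6% male. Another 29.2 to 44.2% had no call, more in saline than in risperidone. The paper pooled equal numbers of male and female mice. Free Xist RNA can make a male nucleus without a Y-linked UMI count as female, and the share of wrong calls was not tested. In female glutamatergic nuclei, Htr2a went from 51.6 and 51.2 to 31.7 and 31.6 scaled CPM, a log2 ratio of -0.70 (-0.77 to -0.63). In male glutamatergic nuclei it went from 53.1 and 56.2 to 48.6 and 43.7 scaled CPM, a ratio of -0.26 (-0.35 to -0.17). Every male lane lay above every female lane in both conditions, by a smaller gap in saline than in risperidone. Each sex was scaled on its own, and the share of genes with the sexes apart was not computed.

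Classes differed in the gap between the ratios of the sexes. Female L2/3 IT nuclei went from 47.5 and 42.7 to 15.5 and 17.2 scaled CPM, a ratio of -1.44 (-1.61 to -1.28), and male L2/3 IT nuclei from 43.7 and 41.1 to 38.3 and 32.2 scaled CPM, a ratio of -0.27 (-0.46 to -0.08). Female claustrum/Car3 nuclei were at -1.15 (-1.43 to -0.88) and male ones at -0.01 (-0.40 to 0.38), the latter from 136 saline and 97 risperidone UMIs with lanes at 184.4 and 211.0 against 158.6 and 235.2 scaled CPM. Female PV interneurons were at -0.96 (-1.26 to -0.66) and male ones at -0.07 (-0.45 to 0.31). L4/5 IT neurons stood at -0.77 in female and -0.29 in male nuclei, and GABAergic neurons as a whole at -0.32 in each. Among 14 classes with at least 20 UMIs per pool and sex, the ratio was below 0 in both sexes in 9 and lower in female nuclei in 11, with medians of -0.69 in female and -0.07 in male nuclei. Each sex of a condition was 1 group of mice in 1 pool, so this difference between the sexes was not tested.

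**Figure D3:**
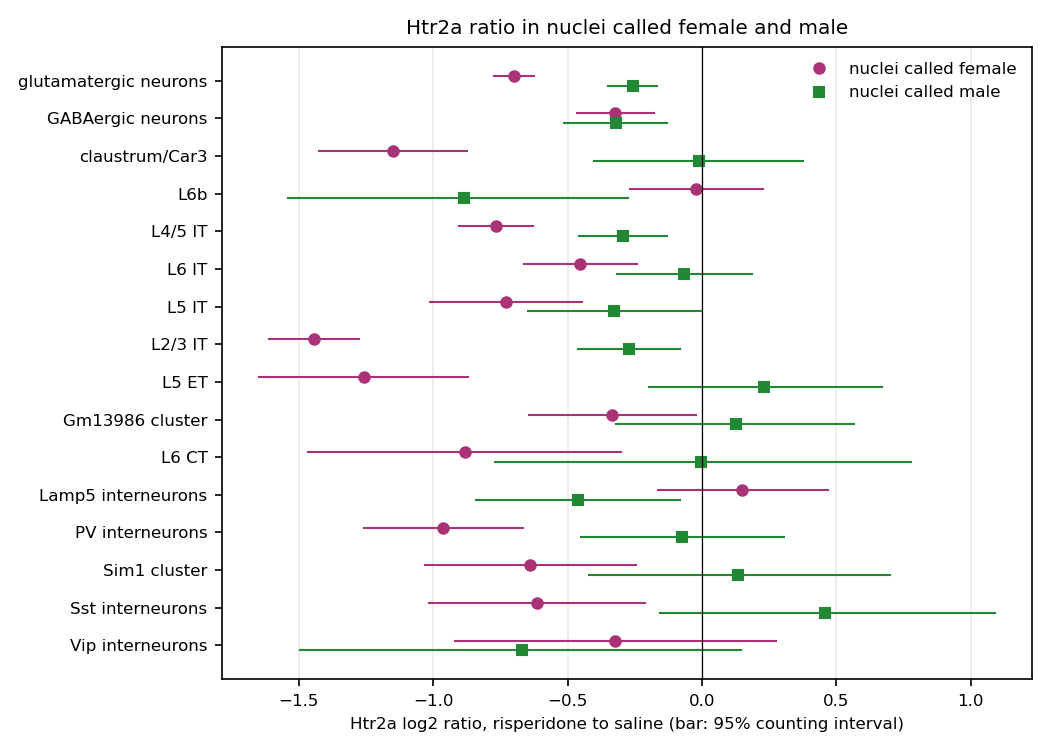
Htr2a log2 ratio of risperidone to saline on the x axis in nuclei called female (circles) and male (squares), for glutamatergic and GABAergic neurons and each class with at least 20 UMIs per pool and sex; bars are 95% counting intervals. In L2/3 IT the female point is at -1.44 and the male point at -0.27, and in claustrum/Car3 they are at -1.15 and -0.01, while L6b, Lamp5 and Vip interneurons have the male point lower.

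Htr2c did not move in 1 direction. Over all nuclei its log2 ratio was -0.01 (-0.04 to 0.01). In glutamatergic neurons it was -0.26 (-0.30 to -0.22), from 73.5 and 75.6 to 60.8 and 63.5 scaled CPM, and in GABAergic neurons 0.21 (0.16 to 0.26), from 170.5 and 190.4 to 219.0 and 202.5 scaled CPM. Neither passed the rule, and with classes from the markers of each nucleus these ratios were 0.06 and -0.06, of the opposite sign. With clusters weighted equally they were 0.32 in glutamatergic and 0.14 in GABAergic neurons. Of 26 classes, 4 were called higher and 5 lower, against 5.08 to 14.3% of genes called higher and 5.43 to 16.7% called lower in those classes.

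Of the classes called higher, the Tshz2 and Gm13986 clusters were rich in Htr2c in both conditions, while in saline Sst interneurons and the Gm49906 cluster lay below the level of all nuclei. The Tshz2 cluster went from 347.3 and 350.4 to 559.2 and 559.0 scaled CPM, a log2 ratio of 0.68 (0.59 to 0.77), and the ratio was 0.63 in female and 0.84 in male nuclei. The background of genes called higher there was 7.16%. The Gm13986 cluster went from 186.2 and 199.4 to 283.6 and 297.9 scaled CPM, a ratio of 0.59 (0.52 to 0.66), with 5.9% of genes called higher. It stood at 0.99 in female and 0.26 in male nuclei, the latter short of the rule. Its 2 finer subclusters were at 0.35 and 0.70 for Htr2c, and at -0.41 and 0.21 for Htr2a. Sst interneurons went from 82.1 and 75.9 to 114.5 and 143.8 scaled CPM, a ratio of 0.73 (0.57 to 0.90), with 7.02% of genes called higher, and stood at 0.28 (-0.013 to 0.57) in female nuclei, where the lanes overlapped and the rule was not passed, and at 1.42 in male nuclei. The Gm49906 cluster went from 73.0 and 69.5 to 225.2 and 257.2 scaled CPM, a ratio of 1.77 (1.53 to 2.01), where 14.3% of genes were called higher. The Sim1 cluster (0.31, 0.23 to 0.38) was higher in every lane pair, in a class where lanes stood apart for 65.8% of genes, and fell short of the rule. L5/6 NP (-0.01), Vip interneurons (0.11) and striatal-type neurons (0.09), which also hold much Htr2c, had overlapping lanes.

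The classes called lower for Htr2c were those with little of it: L6 IT (-1.42, -1.72 to -1.13), L6 CT (-1.17), astrocytes (-1.06), L2/3 IT (-0.98, -1.12 to -0.84) and Lamp5 interneurons (-0.86). L6 IT reached 10 CPM only through its saline lanes, with means of 24.2 CPM in saline and 9.48 CPM in risperidone. Its call is therefore no support for a fall. The percent of genes called lower was 7.14 in L6 IT, 6.27 in L6 CT, 12.7 in astrocytes, 6.8 in L2/3 IT and 8.68 in Lamp5 interneurons. In L6 IT the UMIs expected from RNA of other nuclei were 1.56 to 4.05 times those counted, in L2/3 IT 1.42 to 2.65 times, in L6 CT 0.81 to 1.5 times, in astrocytes 0.89 to 1.48 times and in Lamp5 interneurons 0.64 to 1.12 times. In L6 IT and L2/3 IT the expected number exceeded the counted one in every lane, and in the other classes it did so in some lanes. With classes from the markers of each nucleus, the ratio turned to 0.45 in L6 IT, 0.40 in astrocytes and 0.18 in Lamp5 interneurons. It was -0.04 in L6 CT, while L2/3 IT kept -0.74. Those classes also held nuclei of other clusters. Htr2c in L6 IT was then at 90.4 CPM in saline and 128.8 CPM in risperidone, against a mean of 16.8 CPM in the cluster class.

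For the class with the highest mean of each gene over all lanes, the expected UMIs were few. They were 0.04 to 0.10 times the Htr2c counted in the Tshz2 cluster and 0.10 to 0.19 times the Htr2a counted in claustrum/Car3. For Htr2a they were 0.13 to 0.17 times those counted in L4/5 IT, 0.16 to 0.27 times in PV interneurons and 0.45 to 0.53 times in L2/3 IT, and for Htr2c in Sst interneurons 0.19 to 0.44 times. The estimated share of RNA of other nuclei differed between the conditions, so taking it out shifts the ratios by itself. In glutamatergic neurons it was 41.35 and 39.97% in saline against 32.3 and 32.8% in risperidone. In GABAergic neurons it was 38.3 and 35.3% against 28.7 and 24.3%. The estimate was too high for some genes, since it exceeded the UMIs counted, as given below for Adarb2 in glutamatergic neurons. With the expected UMIs taken out, the Htr2a ratio was -0.93 in claustrum/Car3, -0.93 in L2/3 IT, -0.60 in L4/5 IT and -0.51 in PV interneurons. It was -0.40 in glutamatergic and -0.09 in GABAergic neurons. The Htr2c ratio became 0.77 in the Tshz2 cluster, 0.78 in the Gm13986 cluster and 1.18 in Sst interneurons.

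**Figure D4:**
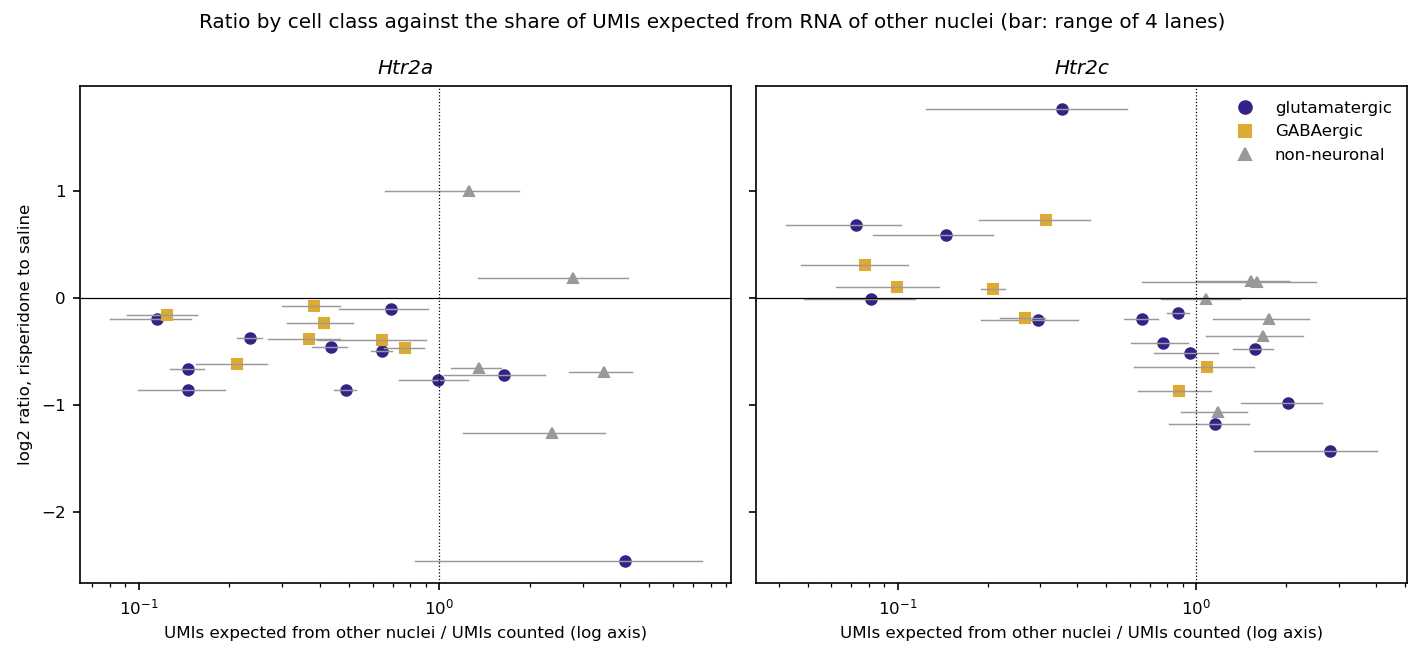
Log2 ratio of risperidone to saline on the y axis against the UMIs expected from RNA of other nuclei divided by those counted, on a log x axis, for Htr2a (left) and Htr2c (right); each point is a class (circles glutamatergic, squares GABAergic, triangles non-neuronal), placed at the middle of the range of the 4 lanes shown by the bar, and the dotted line marks equal numbers. The Htr2c classes called higher lie left of that line, and those called lower lie around or right of it, such as L6 IT at 1.56 to 4.05.

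The mix of nuclei also differed between the pools. The Gm13986 cluster made up 8.01 and 7.89% of saline nuclei and 3.28 and 3.13% of risperidone nuclei, and held 17.4 and 18.2% of all Htr2c UMIs in saline against 13.4 and 14.7% in risperidone. Striatal-type neurons, which lie below the cortex, made up 3.37 and 3.13% against 1.62 and 1.70%, while L2/3 IT neurons made up 14.5 and 14.3% against 19.2 and 19.3%. As an alternative chosen after the data were seen, risperidone levels of each cluster were weighted by the saline shares. Htr2c was then at 108.2 CPM against 88.8 CPM in saline, a log2 ratio of 0.28, and saline levels at the risperidone shares gave 78.1 CPM (-0.18). For Htr2a the corresponding values were -0.46 and 0.06. In the mixed clusters Htr2c was at 75.6 and 84.5 CPM in saline and 109.8 and 107.7 CPM in risperidone. Their median depth was 2843 and 3390 UMIs per nucleus in saline and 7664 and 10281 in risperidone, and they held 11.5 and 12.1% of all Htr2c UMIs in saline and 24.3 and 22.4% in risperidone. The part of dissection, sequencing depth and drug in these shares cannot be told apart.

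Htr2b was barely counted. The saline lanes held 32 and 39 UMIs and the risperidone lanes 329 and 347, or 0.33 and 0.323 against 2.35 and 2.01 CPM, and no class had a mean above 2.21 CPM. The risperidone lanes lay well above the saline lanes, at a log2 ratio of 2.67 (2.32 to 3.05). Between 1 and 10 CPM, 6766 genes were compared in all nuclei, and 20.2% of them were higher by a log2 ratio of at least 0.5 with lanes apart. Of the 6766, 38 had a larger ratio than Htr2b. Htr2b reached the mean of 1 CPM only through its risperidone lanes, so a large upward ratio was set by the choice of genes. Its place among them is therefore no support for a rise. Psmd1, which encloses Htr2b on the other strand, had 5596 and 6773 UMIs in saline and 10246 and 12228 in risperidone, a log2 ratio of 0.28, and 252 exon bases of Htr2b coincide with Psmd1 exons. Htr2b UMIs per 1000 Psmd1 UMIs were 5.72 and 5.76 in saline and 32.1 and 28.4 in risperidone, 6.03 and 5.76 against 30.6 and 27.8 in glutamatergic neurons, and 5.25 and 6.76 against 35.1 and 27.6 in GABAergic neurons. Among genes at 1 to 10 CPM, 23% overlapped a gene with more UMIs on the opposite strand, and among those higher in risperidone 52.3% did. Whether the Htr2b UMIs came from Htr2b transcripts was not tested.

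**Figure D5:**
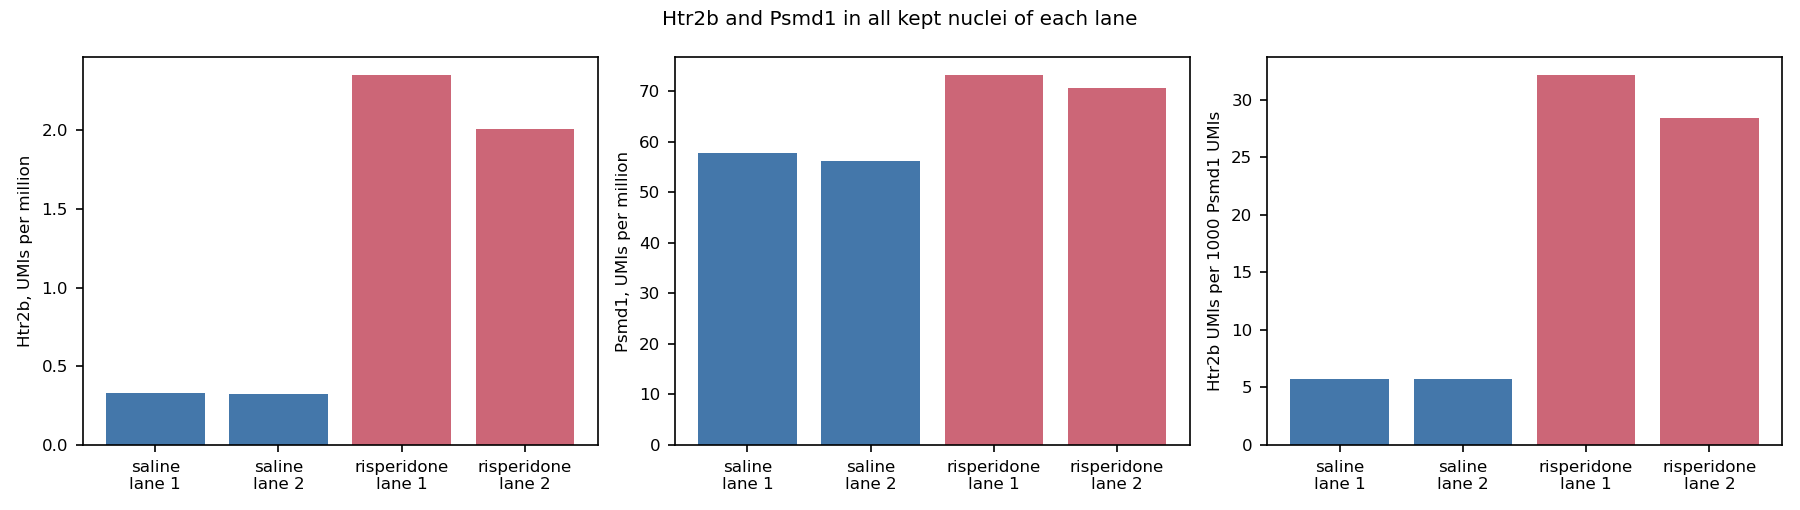
Bars for the 4 lanes on the x axis, blue for saline and red for risperidone, giving from left to right Htr2b in CPM, Psmd1 in CPM and Htr2b UMIs per 1000 Psmd1 UMIs. Htr2b is at 0.33 and 0.323 CPM in saline and 2.35 and 2.01 CPM in risperidone, and Psmd1 at 57.7 and 56.2 against 73.1 and 70.7 CPM.

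Downstream of the receptors, 13 genes of Gq signalling were listed, along with 15 receptor partners and regulators and 8 genes of serotonin supply and removal. In glutamatergic neurons 18 of the 36 reached 10 CPM, 0 were called higher and 2 lower, against 4.76% and 6.28% of all genes. The median log2 ratio was -0.22, with 0.01 for all genes. Those called were Grk3, a receptor kinase gene, at 89.5 and 88.7 against 63.3 and 61.1 scaled CPM (-0.52), and Adarb2, an RNA-editing enzyme paralogue and a marker of caudal interneurons, at 174.5 and 152.2 against 84.5 and 81.9 scaled CPM (-0.96). Expected UMIs from other nuclei exceeded the Adarb2 counted 2.27 to 3.32 times. In GABAergic neurons 20 reached 10 CPM, 0 were called higher and 2 lower, against 4.39% and 4.6% of all genes: Gna11, a Gq-family subunit gene (-0.60), and Dlg4, which encodes the postsynaptic scaffold PSD-95 (-0.50). The median was -0.20, and 0.00 for all genes.

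Among the classes where Htr2a was lower, L4/5 IT neurons had 19 list genes at 10 CPM or more and 2 called lower, against 5.43% of all genes, including Adarb2 (-1.29), with 2.92 to 4.72 times its counted UMIs expected from other nuclei. L2/3 IT neurons had 18 and 2, against 6.8% of all genes, the receptor kinase gene Grk5 (-0.53) and Adarb2 (-1.36), the latter with 3.52 to 6.83 times its counted UMIs expected from other nuclei. Claustrum/Car3 had 20 list genes at 10 CPM or more and 3 called lower, against 7.96% of all genes, Gna11 (-0.83), the receptor kinase gene Grk2 (-0.74) and Prkca (-0.55), the last with 0.98 to 1.73 times its counted UMIs expected from other nuclei. In PV interneurons 3 of 19 were called lower, including Gna11 (-0.79) and Dlg4 (-0.58), and 1 higher, the receptor kinase gene Grk6 (0.55), against 6.1% and 6.77% of all genes. In Sst interneurons, where Htr2c was higher, 4 of 21 were called lower, against 6.9% of all genes: Gna11 (-1.0), Gna14 (-0.81), the inositol trisphosphate receptor gene Itpr2 (-0.68) and Dlg4 (-0.59). In the Tshz2 cluster 3 of 21 were called lower and 1 higher, against 6.69% and 7.16% of all genes. They included Itpr2, at 19.2 and 22.5 against 9.16 and 9.96 scaled CPM (-1.12), and Adarb2 (-1.49), with 2.15 to 3.97 times its counted UMIs expected from other nuclei, and Grk6 was called higher (0.64). The serotonin supply list had 1 gene at 10 CPM in both sums, Maoa, which encodes a serotonin-degrading monoamine oxidase. Its ratios were 0.41 in glutamatergic and 0.29 in GABAergic neurons. By class, 1 gene of this list was called higher in each of L5 ET, L6 CT, L6 IT, L6b and oligodendrocytes, against 5.35 to 12.4% of all genes. In the Sim1 cluster 1 was called lower, against 7.82% of all genes.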

How the data were processed

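The deposited values were UMI counts per gene and nucleus, which the authors made with Cell Ranger 8.0.1 on the mm10 (GRCm38) reference with introns included. The Python 3.11.15, scipy 1.17.1 and scikit-learn 1.9.0 scripts left out nuclei under 500 genes or above 5% mitochondrial UMIs, and removed the highest scorers against simulated doublets (0.4% per 1000 nuclei of the lane). Counts scaled to 10000 were clustered on 2000 variable genes, 30 components and 20 neighbours (Louvain, igraph 0.11.9, resolution 0.5). Clusters were named from lists of marker genes, with score thresholds set after marker levels were seen. Class sums were scaled with TMM in edgeR 4.0.16 (R 4.3.3). DESeq2 1.42.0 gave alternative size factors. Ratios needed 50 nuclei per lane, or 20 per lane where the nuclei of 1 sex were taken alone. They had exact binomial counting intervals, and levels had Poisson intervals. Other alternatives were lanes left out, other resolutions, filters, thinning and sexes. Barcodes shared by 2 lanes numbered 160 to 221 per pair of lanes. The genes and lists were chosen with earlier results of these data known. Genes named were the members, list genes past the rule (at most 4 per class), genes of most similar pattern and overlapping genes. No count model was fitted because each condition was 1 pool. Results of 1 list gene are not reported here.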

Additional observations from a re-analysis of the deposited data

Results flagged for a closer look

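For each gene, the ratios of 3 classes had opposite signs in nuclei called female and male, in every lane pair. This was among 14 classes for Htr2a and 16 for Htr2c with at least 20 UMIs per pool and sex. The share of all genes with such a pattern was not computed, and the lanes of a condition were technical runs of 1 pool. In 4 of the 6 the counting interval of 1 sex included 0. None of these differences was tested, since each sex of a condition was 1 group of mice in 1 pool. For Htr2a, L5 ET neurons had a log2 ratio of risperidone to saline of -1.26 (-1.65 to -0.87) in female and 0.23 (-0.20 to 0.67) in male nuclei. Sst interneurons had -0.61 (-1.02 to -0.21) in female and 0.46 (-0.16 to 1.09) in male nuclei. Lamp5 interneurons went the other way, with 0.15 (-0.16 to 0.47) in female and -0.46 (-0.84 to -0.080) in male nuclei. For Htr2c, claustrum/Car3 neurons had 0.36 (0.071 to 0.66) in female and -1.84 (-2.47 to -1.26) in male nuclei, the latter with 29 risperidone UMIs, from 142.1 and 124.2 to 155.7 and 178.9 scaled CPM and from 141.6 and 269.1 to 50.1 and 67.8 scaled CPM. L5 ET neurons had -0.57 (-0.84 to -0.29) in female and 0.59 (0.26 to 0.94) in male nuclei. L4/5 IT neurons had 0.0765 (-0.11 to 0.27) in female and -0.59 (-0.87 to -0.31) in male nuclei. The thinned Htr2c shares of L5 ET and L4/5 IT lay within the oligodendrocyte range, so no expression was read from them. UMIs expected from RNA of other nuclei were 0.80 to 0.94 times those counted in L5 ET and 0.57 to 0.74 times in L4/5 IT.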

How the results depend on the processing

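No paired analysis was possible because the results come from no test, with 1 pool per condition. Of 750 alternative log2 ratios, 580 stayed within the spread of the lanes, 165 moved beyond it and 5 changed the sign of a called ratio. The cause of these changes was not tested. For Htr2a over all nuclei the ratio was -0.55 in female and -0.23 in male nuclei, -0.43 with plain CPM and -0.54 with TMM factors from all genes. In glutamatergic neurons it was -0.70 in female and -0.26 in male nuclei, -0.48 with plain CPM, -0.40 with RNA of other nuclei taken out and -0.59 with clusters weighted equally. In GABAergic neurons it was -0.23 after thinning and -0.093 with RNA of other nuclei taken out. Among called ratios, the Htr2a sign turned in L5/6 NP in female nuclei (0.37) and, with classes from the markers of each nucleus, in endothelial cells (-0.053). Among uncalled Htr2a ratios of neuronal classes it turned under at least 1 alternative in 8, up to 2.26 in the Gm13986 cluster and 1.04 in Vip interneurons with RNA of other nuclei taken out. With classes from the markers of each nucleus the Htr2c sign of called ratios turned in L6 IT (0.45), Lamp5 interneurons (0.18) and astrocytes (0.40). Those classes also held nuclei of other clusters. For Htr2c over all nuclei the ratio was -0.16 in male nuclei, 0.042 with plain CPM, -0.074 with TMM factors from all genes, -0.0503 to 0.0268 with 1 lane left out, and 0.28 at the saline shares, the alternative added after the data were seen. In glutamatergic neurons it was 0.059 with classes from the markers of each nucleus, -0.10 in female and -0.49 in male nuclei, -0.20 with plain CPM, -0.19 with RNA of other nuclei taken out and 0.32 with clusters weighted equally. In GABAergic neurons it was 0.15 without doublet removal, -0.057 with classes from the markers of each nucleus, 0.30 in male nuclei, 0.27 after thinning, 0.28 with plain CPM, 0.14 to 0.29 with 1 lane left out, 0.33 with RNA of other nuclei taken out and 0.14 with clusters weighted equally. List genes called higher went from 0 to 2 in each sum at a minimum of 1 CPM. Those called lower in glutamatergic neurons went from 2 to 4 at a minimum of 1 CPM, 1 with plain CPM, 0 at a log2 ratio of at least 1, and 1 to 2 with 1 lane left out. In GABAergic neurons they went from 2 to 5 at a minimum of 1 CPM, 1 at 50 CPM, 1 with plain CPM, 0 at a log2 ratio of at least 1, and 1 to 2 with 1 lane left out.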
